A study of Rattus norvegicus with 24 samples.

Results

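The genes studied here are those carried on the mitochondrial DNA of the rat lung. They are the 37 rows, or gene entries, of the count table whose chromosome is given as MT, of 32883 rows in all. A length of 200 bases divides them into 15 long rows of 204 to 1830 bases and 22 short rows of 60 to 75 bases, and no measured value entered this choice. Lungs came from male wild-type Sprague-Dawley rats that had received 1 intraperitoneal injection of monocrotaline (MCT) at 50 mg per kg or of PBS buffer. MCT, an alkaloid from plants, damages endothelial cells of the lung, and the treated rat serves as a model of pulmonary hypertension. The 6 groups were MCT and PBS rats at Week 1 (day 7), Week 2 (day 14) and Week 3 (day 21), with 4 rats in each and 1 library per rat. RNA was taken from whole lung tissue perfused with PBS, so fewer cells of a type and less RNA per cell cannot be told apart. Each week had its own rats.

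Mitochondria keep a small circular genome of their own. It encodes core subunits of the respiratory chain complexes and of ATP synthase, which make most of the ATP of the cell, together with the ribosomal and transfer RNAs needed to translate them. All other mitochondrial proteins, including the polymerase and the RNA-processing enzymes, come from nuclear genes. Both strands of the circle are transcribed into long precursors that are cut into single RNAs at the tRNAs between the genes. In the lung, mitochondria are abundant in ciliated airway cells and in alveolar type 2 cells. Libraries were made from RNA bound to poly-T beads, so the level of a row also reflects how well its RNA is captured by its tail.

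Coordinates are those of the deposited table, on the build Rnor_6.0. Of the 15 long rows, 6 carry a symbol, and all 6 encode subunits of complex I, the NADH dehydrogenase by which electrons enter the chain. They are ND1 (MT:2740-3694), ND2 (MT:3904-4942), ND3 (MT:9451-9798), ND4L (MT:9870-10166), ND4 (MT:10160-11537) and ND6 (MT:13543-14061). These symbols come from the study's table of genes changed in these same rats, so a called row among the named ones is not independent evidence. The other 9 long rows are given by position, and no gene name was assigned to them or to the short rows. ND6 was the only long row on the minus strand, against 14 on the plus strand. ND4L and ND4 share 7 bases, ND6 shares 23 bases with the row at MT:11736-13565, and MT:7758-7961 shares 43 bases with MT:7919-8599. How reads in such overlaps were counted is not given in the sources used here, so those rows may share reads.

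Depth ranged from 19804731 to 32835200 counts per library. PBS replicates 1 and 3 of Week 1 were the shallowest, and the other 22 libraries held at least 28357609 counts. Lung markers were checked as far as they had an identifier, 3 of 6 for alveolar type 1, 3 of 9 for alveolar type 2 and 8 of 11 for endothelial cells, and none of these was at 0 in any group. Marker symbols too came from the study's table of genes changed in these rats, so sums and counts of markers below are not independent evidence. Separate rats stand behind all libraries, and no pair within a group agreed within sampling noise (lowest chi-square per degree of freedom 22.5 in 36 pairs).

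Along the mitochondrial DNA the counted rows covered a wide range of levels per length, given here as the median CPM (counts scaled to a library total of 1000000) per kilobase over 24 libraries. The row at MT:5323-6867 stood at 7236, MT:8599-9382 at 7227, MT:7919-8599 at 6601 and MT:7006-7689 at 5049. The ranges of these 4 rows overlapped one another over the 22 deeper libraries, and ranges alone do not settle their order. In each of these libraries MT:7006-7689 lay below MT:7919-8599. MT:14136-15278 followed at 3148, ND1 at 2634 and ND2 at 2396. ND3 stood at 1315, MT:11736-13565 at 801, ND4L at 615 and ND6 at 540. The lowest long rows were MT:68-1025 at 257, MT:1094-2664 at 228, ND4 at 155 and MT:7758-7961 at 11.2. Rows for subunits of the same complex I therefore differed widely in counts per length, with ND1 and ND2 high and ND4 low. The part of tail capture and of reads with several alignments in this was not tested.

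**Figure D1:**
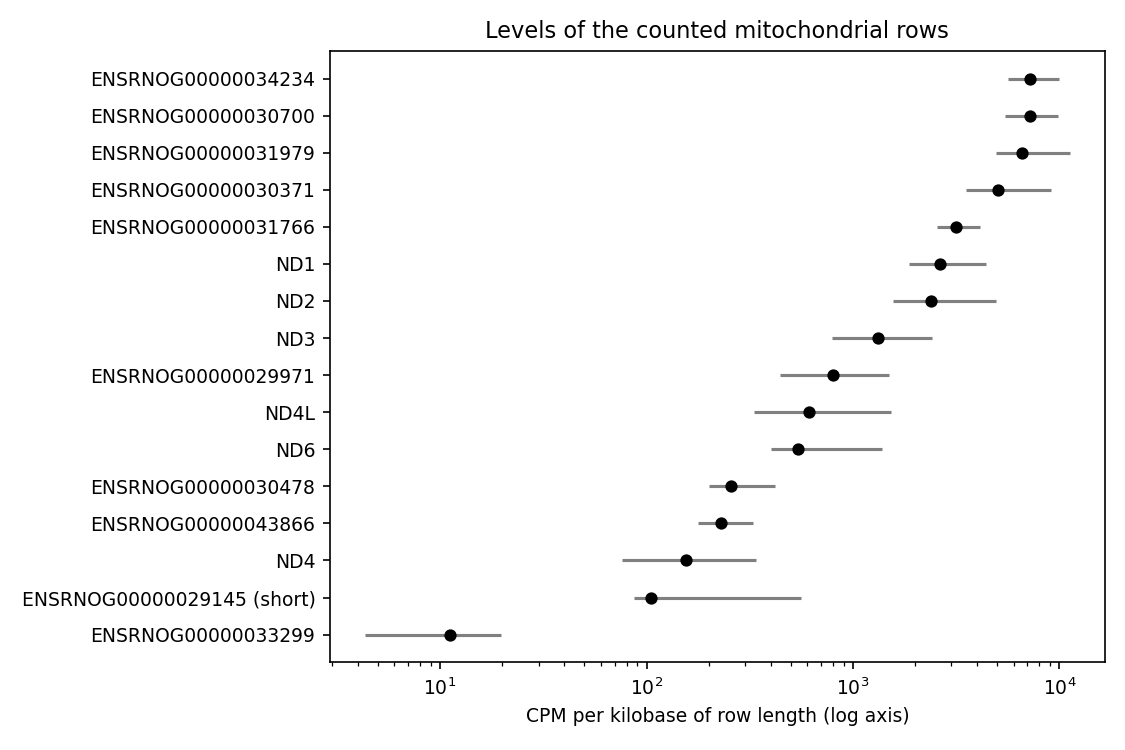
Levels of the 16 counted mitochondrial rows on a log axis, as CPM per kilobase of row length. Points are medians over 24 libraries and lines run from the lowest to the highest of the 22 deeper libraries; rows without a symbol carry their identifier. The levels lie between 11.2 and 7236.

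Of the 22 short rows, 21 had 0 counts in every library, which allows at most 0.0914 to 0.151 CPM depending on the library (a limit of 3 counts, for counting error only). The remaining one, ENSRNOG00000029145 at MT:15348-15415 on the minus strand, held 7095 counts over the 24 libraries, or 105 CPM per kilobase. Results for the short class are therefore results of 1 row. Among the long rows, MT:7758-7961 held 1619 counts in all and was at 0 in PBS replicate 3 of Week 1.

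The long rows together took 0.941% to 5.41% of a library's counts, and 2.87% to 5.41% in the 22 deeper libraries. In Week 1 the MCT libraries held 3.24%, 3.15%, 4.57% and 3.47%, against 2.94%, 4.30%, 0.941% and 3.62% in the PBS libraries. The groups overlapped, and the lowest value of the series was that of PBS replicate 3. In Week 2 the MCT libraries held 3.89%, 3.37%, 4.70% and 3.78%, against 2.96%, 3.11%, 3.28% and 2.87% in the PBS libraries. All 4 MCT values lay above all 4 PBS values. In Week 3 the MCT libraries held 4.48%, 4.12%, 3.09% and 3.80%, against 4.49%, 5.08%, 5.41% and 4.05% in the PBS libraries. MCT replicate 3 was the lowest and PBS replicate 3 the highest, and the groups overlapped.

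**Figure D2:**
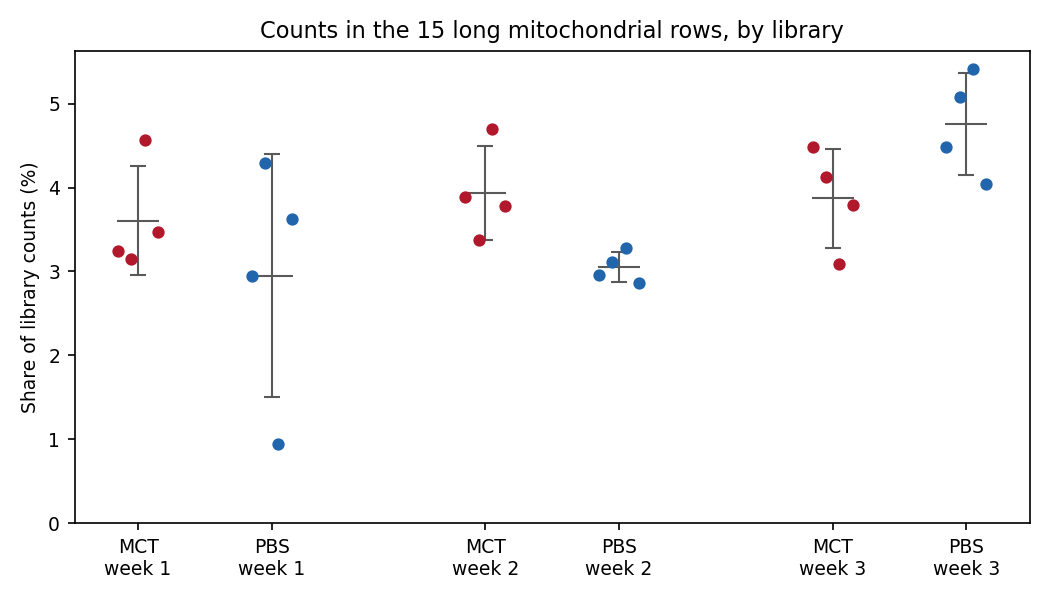
Share of each library's counts in the 15 long mitochondrial rows, in percent, for MCT (red) and PBS (blue) lungs at Weeks 1, 2 and 3. Each point is 1 rat, and the bar and whiskers are the mean ± SD of 4 rats; the MCT mean is 3.93% in Week 2 and 3.87% in Week 3, while the PBS mean is 3.05% in Week 2 and 4.76% in Week 3.

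As means, the share was 3.61% ± 0.65 in MCT and 2.95% ± 1.45 in PBS lungs in Week 1 (SD, n = 4 each). It was 3.93% ± 0.56 in MCT and 3.05% ± 0.18 in PBS lungs in Week 2 (SD, n = 4 each). In Week 3 it was 3.87% ± 0.59 in MCT and 4.76% ± 0.61 in PBS lungs (SD, n = 4 each). The difference of MCT minus PBS was thus 0.88 percentage points in Week 2 and -0.88 in Week 3. In Week 1 it was 0.66 points and turned to -0.35 without PBS replicates 1 and 3. Because the share sums over the rows under study, it was given no test.

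Week 1 addressed the first days after the injury. Of the 15 long rows 10 had a fold change above 0 and 5 below, with a median log2 fold change (MCT over PBS) of 0.21 beside -0.04 over all 15658 genes tested. A row was called where edgeR's quasi-likelihood test gave a Benjamini-Hochberg adjusted p under 0.05 and a fold over 1.5, and 0 of 15 were called, as against 0.0894% of all genes. At an unadjusted p under 0.05 there was 1 row, beside 5.27% of all genes, and DESeq2 and limma-voom also called 0. That row was MT:1094-2664, with 352, 385, 412 and 408 CPM in MCT lungs, against 532, 472, 583 and 451 CPM in PBS lungs (log2 fold change -0.48, SE 0.20, adjusted p = 0.886 by edgeR). It was the only long row whose groups did not overlap, all MCT values lying below, where 1.25% of all genes did so. No long row had all MCT values above, where 6.3% of all genes did.

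The PBS lungs of Week 1 varied widely. ND1 stood at 2038, 2129, 3200 and 2016 CPM in MCT lungs, against 1221, 2931, 223 and 2657 CPM in PBS lungs. ND3 stood at 463, 391, 710 and 511 CPM in MCT lungs, against 1651, 477, 48.3 and 408 CPM in PBS lungs. In the PBS lungs both genes were lowest in replicate 3, and ND3 was highest in replicate 1. Without PBS replicates 1 and 3 the count of called long rows was still 0 (2.04% of all genes were called), while the median log2 fold change of the long rows was -0.20. Erythroid markers (7 of 10 with an identifier) lay apart between the groups of that week, with a summed 790 to 3113 CPM in MCT and 5857 to 12306 CPM in PBS lungs. By edgeR 0 of 7 were called, beside 0.0894% of all genes. Mast cell markers (3 of 7) summed to 121 to 168 CPM in MCT and 178 to 496 CPM in PBS lungs, with 0 of 3 called, and the part of these lists in the result was not tested.

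At day 14 the mitochondrial rows leaned to the MCT side, and none was called. In Week 2 all 15 long rows had a fold change above 0, with a median log2 fold change of 0.35 and a range of 0.07 to 0.62, beside a median of 0.00 over all 16108 genes. By edgeR 0 of 15 were called, as against 9.43% of all genes, of which 6% were higher and 3.43% lower. DESeq2 and limma-voom also called 0. At an unadjusted p under 0.05 there were 10 of 15, beside 31.3% of all genes. With no fold threshold 6 of 15 had an adjusted p under 0.05, all higher in MCT, where 9.9% of all genes did so. For 7 of 15 rows every MCT value lay above every PBS value, beside 11.6% of all genes.

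The complex I gene ND6, transcribed from the minus strand, had 281, 281, 371 and 343 CPM in MCT lungs, against 228, 234, 219 and 235 CPM in PBS lungs. The groups did not overlap, with a log2 fold change of 0.49 (SE 0.10, adjusted p = 0.00922 by edgeR). Its neighbour on the plus strand, MT:11736-13565, had 1742, 1498, 1839 and 1616 CPM in MCT lungs, against 1216, 1164, 1205 and 1293 CPM in PBS lungs. This row had the lowest adjusted p of the mitochondrial rows in that week, 0.00394 by edgeR, at a log2 fold change of 0.46 (SE 0.09). ND6 and this row share 23 bases, and the strand setting of the counting is not given in the sources used here. Reads of the opposite strand therefore cannot be set apart for ND6. ND1 stood at 2449, 2349, 3446 and 2635 CPM in MCT lungs, against 2135, 2171, 2345 and 2114 CPM in PBS lungs, without overlap (log2 fold change 0.32, SE 0.12, adjusted p = 0.105 by edgeR). The 4 rows of highest level also lay wholly above PBS. MT:5323-6867 averaged 12018 ± 1395 CPM in MCT and 9533 ± 716 CPM in PBS lungs (SD, n = 4 each, log2 fold change 0.34, adjusted p = 0.0427 by edgeR). For MT:7006-7689 the log2 fold change was 0.47 (SE 0.12, adjusted p = 0.0234 by edgeR), for MT:7919-8599 it was 0.43 (SE 0.13, adjusted p = 0.0399) and for MT:8599-9382 it was 0.41 (SE 0.13, adjusted p = 0.0446).

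The remaining rows of Week 2 overlapped between groups. ND4 had the widest difference, with 252, 206, 402 and 389 CPM in MCT lungs, against 161, 148, 333 and 174 CPM in PBS lungs. Its log2 fold change of 0.62 passed the fold threshold and its adjusted p did not pass (SE 0.29, adjusted p = 0.173 by edgeR), and it was called once PBS replicate 3, the high control, was left out. ND2, ND3 and ND4L had log2 fold changes of 0.37, 0.35 and 0.31, with adjusted p of 0.0704, 0.203 and 0.128 by edgeR. MT:14136-15278, MT:68-1025, MT:1094-2664 and MT:7758-7961 had 0.28, 0.15, 0.07 and 0.25. The short row ENSRNOG00000029145 stood at 7.0, 6.5, 11.6 and 8.1 CPM in MCT lungs, against 8.1, 7.0, 7.3 and 5.9 CPM in PBS lungs (log2 fold change 0.24, SE 0.21, adjusted p = 0.492 by edgeR). MCT replicate 3 was the highest MCT library for the share and for all the rows whose values are given here for Week 2.

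The summed levels of several marker lists lay apart between the groups of Week 2 as well. Only markers named in the study's table of genes changed in these rats could be summed, so this separation is not independent evidence. Endothelial markers (8 of 11 with an identifier) summed to 3203 to 3755 CPM in MCT and 5691 to 6934 CPM in PBS lungs. Macrophage markers (8 of 11) summed to 1301 to 2460 CPM in MCT and 554 to 842 CPM in PBS lungs. Fibroblast markers (4 of 7) summed to 3311 to 5120 CPM in MCT and 1722 to 2131 CPM in PBS lungs, and they lay wholly above PBS in Weeks 1 and 3 as well. Alveolar type 1 markers (3 of 6) summed to 2186 to 3353 CPM in MCT and 3674 to 4054 CPM in PBS lungs, and neutrophil markers (3 of 7) to 46.3 to 63.4 CPM in MCT and 75.3 to 131 CPM in PBS lungs. The sum of the airway markers (4 of 10) overlapped, with 4808 to 10437 CPM in MCT and 6316 to 9449 CPM in PBS lungs, although Cyp2f4 and Tppp3 fell by 0.82 and 0.88 on the log2 scale (adjusted p = 0.0111 and 0.00152 by edgeR). None of the markers with an identifier was at 0, and the part of these shifts in the mitochondrial rows was not tested.

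In Week 3 the direction was the opposite one. Of the 15 long rows 4 were called lower in MCT than in PBS lungs, beside 11% of all genes. No mitochondrial row was called higher. The mean share was 3.87% in MCT and 4.76% in PBS lungs, beside 3.93% and 3.05% in Week 2. Fell and rose, where used of MCT lungs, mean lower or higher than in PBS lungs of the same week. All 15 long rows had a fold change below 0, although MT:7758-7961, which holds few counts, turned to 0.02 when library totals were not scaled. The median log2 fold change of the long rows was -0.51, beside 0.01 over all 16138 genes. By edgeR 4 of 15 were called, all lower, beside 11% of all genes lower and 22.1% in either direction. The 4 were ND1, ND2, ND3 and ND4. They carry names through the study's table of changed genes, so their common complex is not independent evidence. At an unadjusted p under 0.05 there were 11 of 15, beside 42.7% of all genes. ND1 and ND2 were the long rows whose MCT values all lay below the PBS values, 2 of 15 beside 13.8% of all genes.

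ND1 had 2919, 2648, 1788 and 2582 CPM in MCT lungs, against 3449, 4102, 4198 and 3052 CPM in PBS lungs. The groups did not overlap, with a log2 fold change of -0.65 (SE 0.17, adjusted p = 0.0144 by edgeR). ND2 had 2910, 2796, 1795 and 2526 CPM in MCT lungs, against 3446, 3953, 5093 and 2961 CPM in PBS lungs. Here too all MCT values were lower, and the highest of them and the lowest PBS value lay close together (log2 fold change -0.70, SE 0.20, adjusted p = 0.0208 by edgeR). Both genes encode membrane subunits of complex I.

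ND3, another membrane subunit, had 582, 452, 370 and 275 CPM in MCT lungs, against 650, 804, 841 and 474 CPM in PBS lungs. MCT replicate 1 exceeded PBS replicate 4, so the groups overlapped (log2 fold change -0.80, SE 0.24, adjusted p = 0.0293 by edgeR). ND4 had 216, 167, 158 and 244 CPM in MCT lungs, against 452, 226, 465 and 240 CPM in PBS lungs. PBS replicates 1 and 3 were high and replicates 2 and 4 lay within reach of the MCT lungs (log2 fold change -0.90, SE 0.26, adjusted p = 0.0226 by edgeR). ND4L and ND6 were not called, with log2 fold changes of -0.65 (SE 0.25, adjusted p = 0.0733) and -0.67 (SE 0.26, adjusted p = 0.0747 by edgeR).

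**Figure D3:**
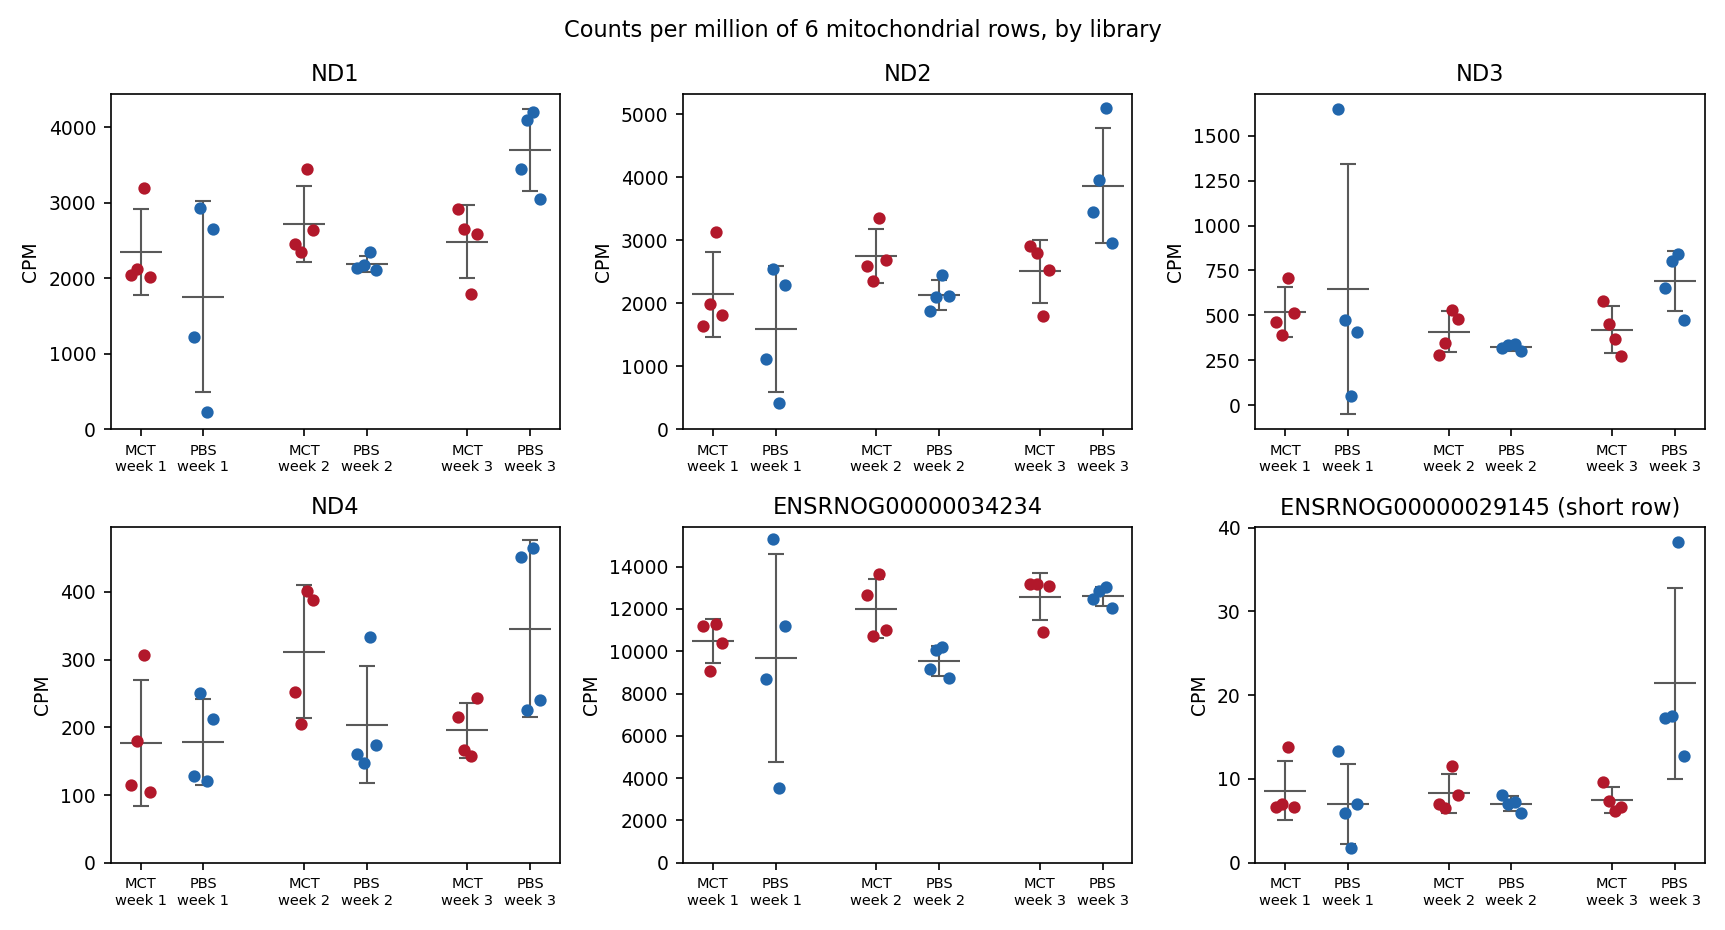
CPM of ND1, ND2, ND3, ND4, ENSRNOG00000034234 (MT:5323-6867) and the short row ENSRNOG00000029145, in MCT (red) and PBS (blue) lungs by week, with the mean ± SD of 4 rats. In Week 3 the MCT points of ND1, ND2 and the short row lie below all PBS points, while those of ENSRNOG00000034234 average 12588 beside 12604 CPM.

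The rows of highest level followed the same direction to unequal extents. MT:7006-7689 and MT:7919-8599 had log2 fold changes of -0.50 (SE 0.20, adjusted p = 0.0742 by edgeR) and -0.51 (SE 0.19, adjusted p = 0.0619). MT:8599-9382 had -0.39 (SE 0.15, adjusted p = 0.0614 by edgeR). MT:5323-6867 differed least among them, with 13174, 13201, 10901 and 13075 CPM in MCT lungs, against 12464, 12868, 13037 and 12046 CPM in PBS lungs. Apart from the lower MCT replicate 3 its groups lay together, and without that library the value was 0.02 (log2 fold change -0.08, SE 0.10, adjusted p = 0.588 by edgeR). MT:14136-15278, MT:11736-13565, MT:68-1025 and MT:1094-2664 had -0.30, -0.42, -0.54 and -0.38, with adjusted p from 0.0647 to 0.180 by edgeR. MT:7758-7961, the row with few counts, had -0.05 (SE 0.36).

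The short row ENSRNOG00000029145 showed the widest difference of all mitochondrial rows in Week 3. It had 9.7, 7.4, 6.2 and 6.7 CPM in MCT lungs, against 17.2, 17.5, 38.3 and 12.7 CPM in PBS lungs. All MCT values lay below all PBS values, and PBS replicate 3 was the highest of the series. The log2 fold change was -1.60 (SE 0.33, adjusted p = 0.00493 by edgeR), so the row was lower in MCT than in PBS lungs. It was called in all 18 alternatives. It lies on the minus strand like ND6, and since the strand setting of the counting is not given in the sources used here, reads of the opposite strand at this position cannot be set apart.

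**Figure D4:**
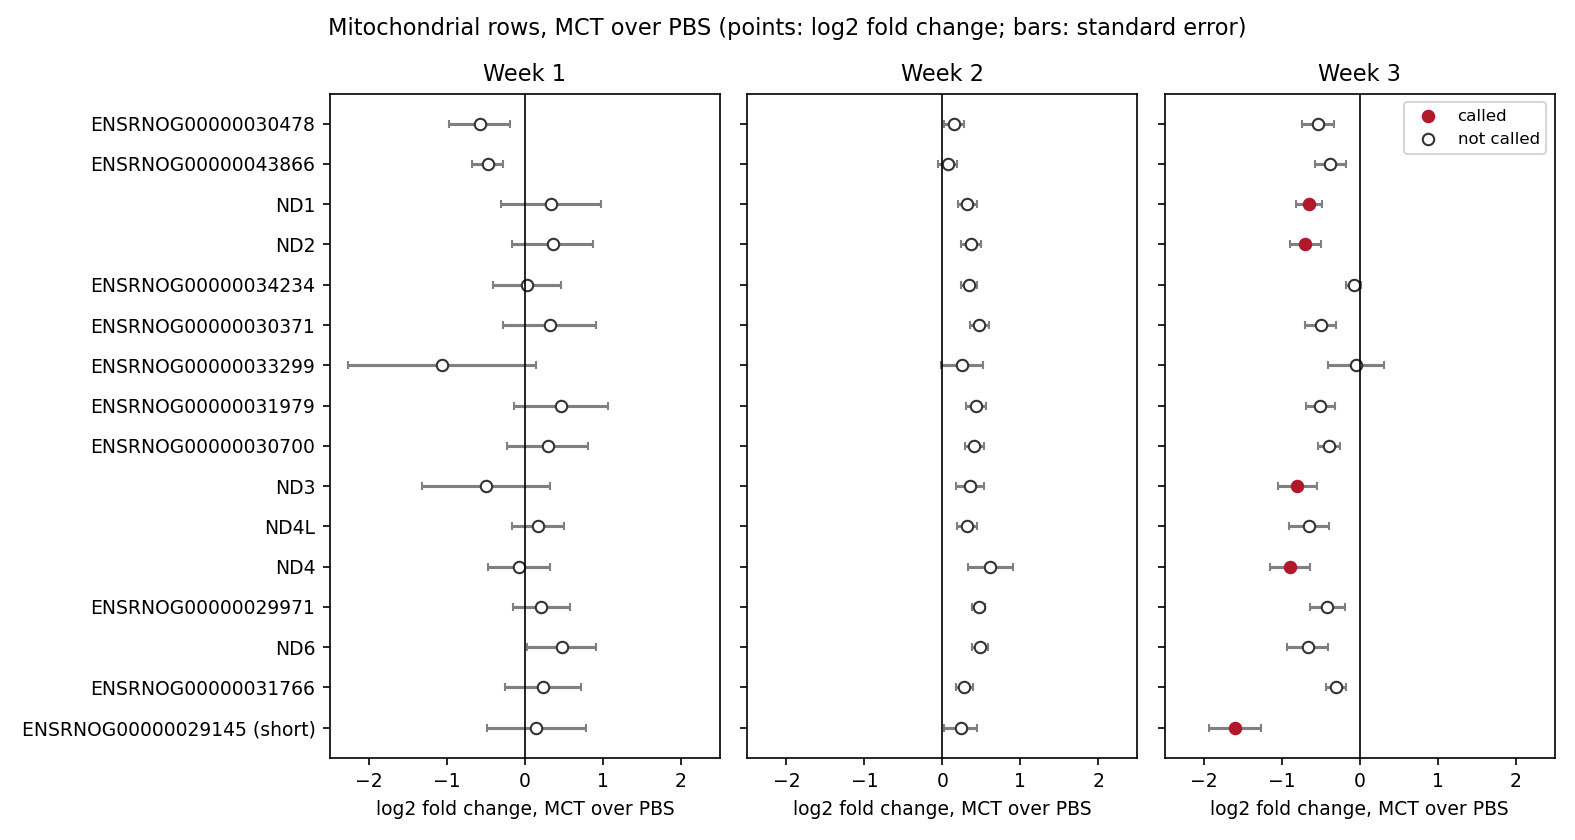
Log2 fold changes of MCT over PBS with their standard errors (edgeR) for the 15 long rows and the 1 counted short row, from top to bottom in their order on the mitochondrial DNA, with 1 panel per week. Filled points passed the test. In Week 2 all 16 points lie above 0 and in Week 3 all 16 lie below 0, with 5 filled; ENSRNOG00000033299 turned to 0.02 in Week 3 without scaling of library totals.

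The calls of Week 3 rested on few libraries. Without MCT replicate 3, the library with the lowest share, or without PBS replicate 3, the one with the highest, 0 of 15 long rows were called. Without MCT replicate 1 the count was 9, without PBS replicate 4 it was 8, and without MCT replicate 2 or MCT replicate 4 it was 2. The share of all genes is not given for these counts, which show only how the calls depended on single libraries. In the fit of all 24 libraries the noisier PBS lungs of Week 1 share the estimate of the spread. There 0 of 15 were called beside 10.6% of all genes. At an unadjusted p under 0.05 that fit gave 2 of 15, beside 4273 of all 17206 genes. ND1 was lost without MCT replicate 3 or PBS replicate 3, and ND2 also without MCT replicate 4. With library totals not scaled 3 of 15 were called, beside 8.85% of all genes lower, and ND1 was the one lost. With a replicate block 3 were called, and ND2 was the one lost, and the share of all genes is not given for this count either. For ND3 the libraries whose absence ended the call were MCT replicates 2, 3 and 4 and PBS replicates 2 and 3. For ND4 they were MCT replicates 2 and 3 and PBS replicates 1 and 3. DESeq2 called 6, all lower, beside 8.26% lower of the 22591 genes with any count. That total is larger than the 16138 genes tested by edgeR, because genes of low counts were kept in it. The fold changes of ND1, ND2, ND3 and ND4 were below 0 in all 18 alternatives.

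The summed level of the airway markers was lower in every MCT lung in Week 3. Of the 4 markers 1 was called, close to the 22.1% of all genes called in either direction. The 4 of 10 ciliated and secretory markers with an identifier summed to 6964, 9443, 4780 and 5101 CPM in MCT lungs, against 10885, 13902, 17507 and 13404 CPM in PBS lungs. The list joins ciliated and secretory cells, so its sum does not tell them apart. MCT replicate 3 was again the lowest library and PBS replicate 3 the highest. The secretory gene Scgb1a1 fell by 1.21 on the log2 scale (adjusted p = 0.00298 by edgeR). Cyp2f4 and Tppp3 had log2 fold changes of -0.79 and -0.50 without passing the test (adjusted p = 0.0981 and 0.0757 by edgeR), and Scgb3a2 had 0.32. Endothelial markers summed to 1777 to 2155 CPM in MCT and 6365 to 6825 CPM in PBS lungs, and alveolar type 1 markers (3 of 6) to 1875 to 2434 CPM in MCT and 3091 to 3289 CPM in PBS lungs. Alveolar type 2 markers (3 of 9) summed to 11052 to 13465 CPM in MCT and 7660 to 10426 CPM in PBS lungs, and by edgeR 0 of 3 were called. Among them the surfactant protein gene Sftpa1 had a log2 fold change of 0.57, against -0.54 for the phosphate transporter gene Slc34a2 and -0.24 for Lamp3. Fibroblast markers (4 of 7) summed to 4246 to 5456 CPM in MCT and 1095 to 1574 CPM in PBS lungs. Macrophage markers summed to 2168 to 3159 CPM in MCT and 603 to 924 CPM in PBS lungs. Mast cell markers and smooth muscle markers (3 of 7 each) also lay wholly above PBS. The 1 cardiac marker with an identifier, Actc1, overlapped between groups in every week. None of these markers was at 0, and their part in the lower level of the mitochondrial rows was not tested. They too were matched through the study's table of changed genes.

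Whether the MCT effect itself changed between weeks was tested in a model of all 24 libraries. From Week 2 to Week 3 the median change of the log2 fold change over the 15 long rows was -0.92, beside 0.01 over all genes. By edgeR 0 of 15 had an adjusted p under 0.05, beside 0.0697% of all genes, and 5 had an unadjusted p under 0.05, beside 10.2% of all genes. DESeq2 also gave 0. For Week 2 minus Week 1 and for Week 3 minus Week 1 the counts were 0 as well, beside 0% and 4.38% of all genes. DESeq2 also gave 0 for both. At an unadjusted p under 0.05 there were 1 and 2 rows, beside 900 and 3601 of all 17206 genes.

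A fit of the 16 libraries of Weeks 2 and 3 alone, chosen after seeing the data, gave another count. There 11 of 15 long rows had a lower MCT effect in Week 3 than in Week 2, beside 9.38% of all genes lower and 16.8% in either direction. ND1 changed by -0.95 on the log2 scale (SE 0.22, adjusted p = 0.0122 by edgeR), ND2 by -1.05 (SE 0.25, adjusted p = 0.0134) and ND4 by -1.50 (SE 0.43, adjusted p = 0.0264). The short row ENSRNOG00000029145 changed by -1.82 (SE 0.42, adjusted p = 0.0111 by edgeR). MT:5323-6867 changed by -0.40 (SE 0.14, adjusted p = 0.0598 by edgeR) and was among the 4 rows not called. The count lay between 6 and 13 when each of the 16 libraries was left out, with 6 without MCT replicate 3 of Week 2 and without MCT replicates 3 or 4 of Week 3. It was 7 without MCT replicate 4 or PBS replicates 2 or 4 of Week 2, and without PBS replicate 3 of Week 3. In the fits with 6 rows, 11.3%, 11.3% and 8.78% of all genes were called in either direction. Without MCT replicate 1 of Week 3 the count was 13, beside 22.8% of all genes. In the 24-library model without PBS replicates 1 and 3 of Week 1 the count was 7, beside 7.95% of all genes.

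Set side by side, the share of the long rows averaged 4.76% in Week 3 and 3.05% in Week 2 PBS lungs, without overlap, and 3.87% in Week 3 and 3.93% in Week 2 MCT lungs, with overlap. Within PBS lungs, Week 3 over Week 2, 10 of 15 long rows rose in the same 16 libraries, beside 3.21% of all genes higher and 6.48% in either direction. The count lay between 8 and 12 when each library was left out. It was 8 without PBS replicate 3 of Week 3, beside 2.92% of all genes, and 12 without PBS replicate 4 of Week 3, beside 9.16%. In the model of all 24 libraries the count was 0 by edgeR, beside 0% of all genes. At an unadjusted p under 0.05 that model gave 9 of 15, beside 1772 of all 17206 genes. In the 16 libraries ND3 rose by 1.15 on the log2 scale (SE 0.24, adjusted p = 0.0101 by edgeR) and ND6 by 1.12 (SE 0.22, adjusted p = 0.00932). The short row rose by 1.65 (SE 0.30, adjusted p = 0.00737 by edgeR). Within MCT lungs, Week 3 over Week 2, 0 of 15 were called, beside 2.79% of all genes, with a median log2 fold change of -0.04. At an unadjusted p under 0.05 there was 1 row, beside 3454 of all 16893 genes.

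These comparisons share their PBS and MCT groups with those of each week and are not independent of them. The weeks differ in rats, so a change of PBS lungs with the age of the rats, the handling of a week and its library preparation cannot be told apart. Airway markers of PBS lungs summed to 10885 to 17507 CPM in Week 3 and 6316 to 9449 CPM in Week 2, without overlap. In MCT lungs the same markers summed to 4780 to 9443 CPM in Week 3 and 4808 to 10437 CPM in Week 2. Their part in the rows' levels was not tested.

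Most of the proteins that work with the mitochondrial rows are nuclear. Of 152 listed genes for subunits and assembly of complexes I to IV and ATP synthase, 18 had an identifier that could be matched to a symbol (11.8%). These symbols come from the study's table of genes changed in these rats, so the counts below describe that table and are not independent evidence. In Week 1, 0 of 18 were called by edgeR, DESeq2 and limma-voom. Over all genes these tools called 14 of 15658, 307 of 21443 and 142 of 15658. At an unadjusted p under 0.05 there were 0 of 18 by edgeR, beside 5.27% of all genes. By DESeq2 there were 4 of 18, beside 1497 of the 21443 genes with any count. In Week 2, 1 of 18 rose and 1 fell, beside 6% of all genes higher and 3.43% lower, so the called share of the list was close to that of all genes. Lyrm7, an assembly factor of complex III, had 8.4, 7.3, 9.5 and 8.4 CPM in MCT lungs, against 6.3, 4.5, 4.2 and 5.9 CPM in PBS lungs (log2 fold change 0.69, SE 0.18, adjusted p = 0.0248 by edgeR). Surf1, an assembly factor of complex IV, had 0.13, 0.16, 0.33 and 0.70 CPM in MCT lungs, against 5.55, 8.39, 4.03 and 0.68 CPM in PBS lungs. Each of MCT replicates 3 and 4 and PBS replicates 2 and 3, when left out, ended the call of Lyrm7, as did a replicate block and the fit of all 24 libraries. The groups of Surf1 met at MCT replicate 4 and PBS replicate 4, and the log2 fold change was -3.82 (SE 0.74, adjusted p = 0.00527 by edgeR), a call that limma-voom and the fit of all 24 libraries did not give.

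In Week 3, 4 of the 18 rose and 4 fell, beside 11.1% of all genes higher and 11% lower. The median log2 fold change of the 18 was 0.55, beside 0.01 over all 16138 genes. DESeq2 and limma-voom each called 8 of them higher and 4 lower. Of the 22591 genes with any count DESeq2 called 2265 higher and 1867 lower, and limma-voom called 2092 and 1943 of 16138. In the fit of all 24 libraries 0 rose and 4 fell, beside 5.29% of all genes higher and 5.34% lower. Without scaling of library totals 9 rose and 4 fell, beside 13% of all genes higher and 8.85% lower. Ndufa13, a complex I subunit, rose, with 24.5, 41.6, 44.3 and 43.2 CPM in MCT lungs, against 18.4, 16.3, 10.9 and 24.5 CPM in PBS lungs (log2 fold change 1.06, SE 0.24, adjusted p = 0.00746 by edgeR). Uqcc3, which serves complex III assembly, rose by 0.92 (SE 0.26, adjusted p = 0.0192 by edgeR) and Cox8a, a complex IV subunit, by 0.75 (SE 0.20, adjusted p = 0.0144). The call of Uqcc3 ended when MCT replicate 2, MCT replicate 3 or PBS replicate 2 was left out. Cox4i2, the lung-enriched isoform of complex IV subunit 4, had 13.0, 14.7, 15.5 and 12.0 CPM in MCT lungs, against 28.9, 43.3, 30.4 and 24.5 CPM in PBS lungs. The groups did not overlap (log2 fold change -1.28, SE 0.19, adjusted p = 0.000756 by edgeR). Cox20 and Coa5, both complex IV assembly factors, fell by 0.87 (SE 0.17, adjusted p = 0.00343) and 0.72 (SE 0.16, adjusted p = 0.00684 by edgeR). Nuclear members of complex IV thus moved both ways in this week. Of the 3 nuclear complex I genes with an identifier Ndufa13 was called, while Timmdc1 and Ndufaf8, both assembly factors, had log2 fold changes of 0.58 and 0.38 (adjusted p = 0.0691 and 0.370 by edgeR).

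Ppargc1a encodes PGC-1 alpha, a coactivator that drives mitochondrial biogenesis. In Week 2 it had 1.31, 1.60, 2.90 and 2.03 CPM in MCT lungs, against 7.73, 6.72, 6.29 and 6.97 CPM in PBS lungs. In Week 3 it had 0.87, 1.53, 1.25 and 1.47 CPM in MCT lungs, against 6.83, 6.59, 8.28 and 8.53 CPM in PBS lungs. The groups were far apart in both weeks, with log2 fold changes of -1.81 (SE 0.27, adjusted p = 0.001) and -2.63 (SE 0.28, adjusted p = 0.000101 by edgeR), and the gene was called in all 18 alternatives of each week. In Week 1 the groups overlapped (2.08 ± 1.25 CPM in MCT and 2.88 ± 2.17 CPM in PBS lungs, SD, n = 4 each, adjusted p = 1 by edgeR). Ppargc1a was thus lower in Week 2, when the mitochondrial rows leaned upward, and in Week 3, when they lay lower.

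**Figure D5:**
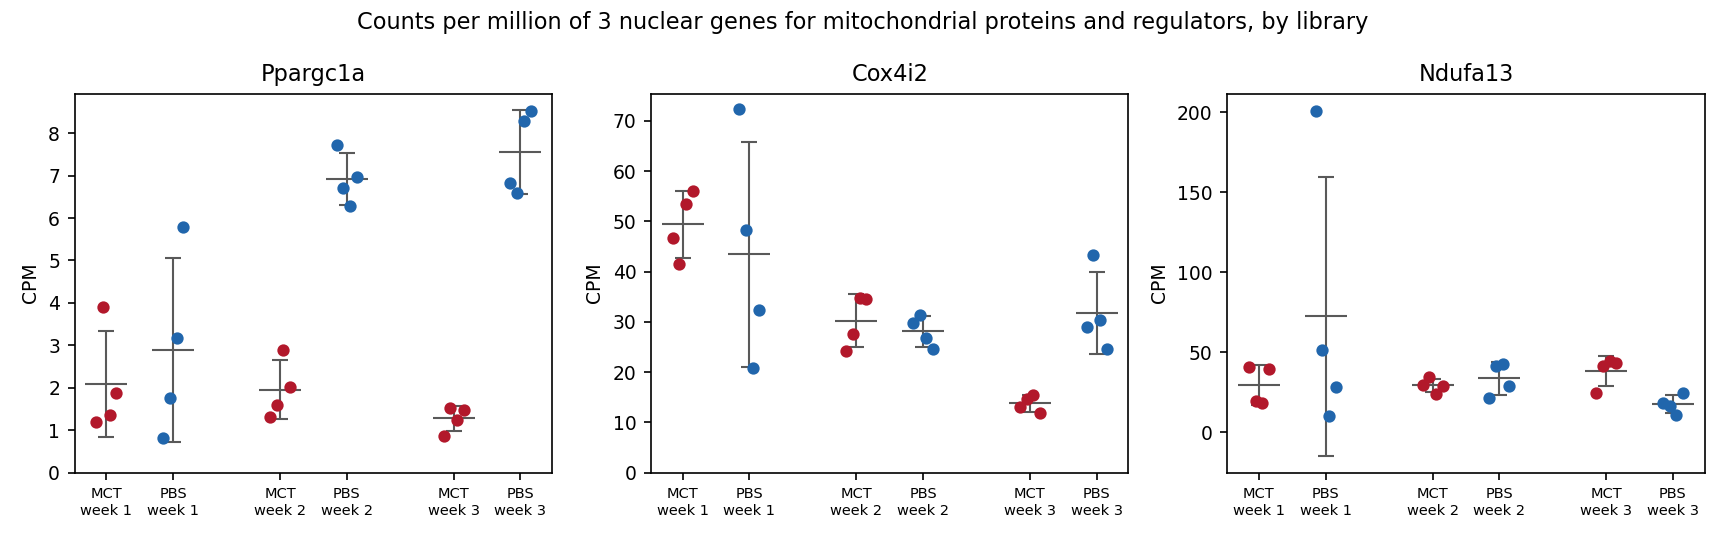
CPM of the nuclear genes Ppargc1a, Cox4i2 and Ndufa13 in MCT (red) and PBS (blue) lungs by week, with the mean ± SD of 4 rats. For Ppargc1a the MCT points lie at 0.87 to 2.90 CPM in Weeks 2 and 3, while the PBS points of those weeks lie at 6.29 to 8.53 CPM.

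Of the 24 genes listed for biogenesis regulators and mitophagy, 5 had an identifier, chosen by the same table. In Week 2 Ppargc1a alone fell among them, beside 3.43% of all genes lower, and in Week 3 4 of 5 fell, beside 11% of all genes lower. Sirt1, the deacetylase that acts on PGC-1 alpha, fell by 0.94 (SE 0.17, adjusted p = 0.00234 by edgeR). Fundc1, a mitophagy receptor of the outer membrane, had 41.2, 27.7, 28.6 and 27.8 CPM in MCT lungs, against 55.1, 56.0, 67.8 and 42.3 CPM in PBS lungs in Week 3 (log2 fold change -0.90, SE 0.19, adjusted p = 0.00506 by edgeR). Of 48 genes for mitochondrial DNA upkeep and RNA handling, 4 had an identifier. In Week 3 Mgme1, an exonuclease of mitochondrial DNA, and Tbrg4, which binds mitochondrial RNA, rose by 0.73 (SE 0.24, adjusted p = 0.0361) and 0.67 (SE 0.17, adjusted p = 0.0121 by edgeR). Pnpt1, the polynucleotide phosphorylase that degrades mitochondrial RNA, fell by 0.81 (SE 0.12, adjusted p = 0.000892 by edgeR). Leaving out any one of MCT replicates 1, 2 and 4 or PBS replicates 1 and 2 ended the call of Mgme1, which was also lost with no filter on low counts, with a replicate block and in the fit of all 24 libraries. The call of Tbrg4 ended without the second replicate of either treatment. In the fit of all 24 libraries the calls of Tbrg4, Sirt1, Ndufa13, Uqcc3 and Cox8a were lost too, while those of Pnpt1, Fundc1, Cox4i2, Cox20 and Coa5 were kept in all 18 alternatives. None of the 4 genes for DNA upkeep and RNA handling was called in Week 1 or Week 2. The MCT values of Mgme1 still lay wholly above PBS in those weeks, as for 6.3% and 11.6% of all genes. Its log2 fold changes were 1.01 in Week 1 and 0.54 in Week 2 (adjusted p = 0.970 and 0.107 by edgeR), so its rise was not particular to Week 3.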

How the data were processed

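Lung RNA of 24 rats was sequenced from poly-A libraries. The authors aligned reads to Rnor_6.0 with HISAT2 2.0.5 and counted them with featureCounts 2.0.3; the deposited values are raw counts per gene without normalization. Strand setting, treatment of reads with several alignments and annotation release are not given in the sources used here. The authors tested with DESeq2 1.32.0.

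Libraries were grouped by label. CPM is counts scaled to a library total of 1000000. Each week's 8 libraries were fitted with edgeR 4.0.16 in R 4.3.3 (filterByExpr, TMM, quasi-likelihood test, Benjamini-Hochberg adjustment over all genes tested); called means an adjusted p under 0.05 and a fold over 1.5, and for changes between weeks, in 24 libraries with 6 group means, an adjusted p under 0.05. Alternatives were other scalings and filters, DESeq2 1.42.0, limma-voom (limma 3.58.1), a replicate block and leaving out libraries. The scripts were tested on simulated data. Named were all long rows, the counted short row, and up to 3 called genes a direction of each nuclear list and week. Members and lists were chosen with earlier results of these data known. Symbols came from the study's table (3275 identifiers). No sequence of these genes was used here.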

Additional observations from a re-analysis of the deposited data

Results flagged for a closer look

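In 102 groups of 4 rats (the share of counts and the CPM of 16 rows in 6 groups), 8 had 1 rat far from the other 3, where chance gives about 5% of groups. In Week 1, MCT replicate 3 stood high for 4 rows: ND1 (3200 CPM, the others 2016 to 2129), ND6 (431 CPM, the others 231 to 244), ENSRNOG00000031766 at MT:14136-15278 (4457 CPM, the others 3162 to 3366) and the short row ENSRNOG00000029145 (13.9 CPM, the others 6.67 to 7.05). PBS replicate 3 of Week 1 stood low for ENSRNOG00000030700 at MT:8599-9382 (987 CPM, the others 5208 to 5725). PBS replicate 3 of Week 2 stood high for ND4 (333 CPM, the others 148 to 174). In Week 3, MCT replicate 1 stood high for ENSRNOG00000043866 at MT:1094-2664 (445 CPM, the others 300.0 to 318), and MCT replicate 3 stood low for ENSRNOG00000034234 at MT:5323-6867 (10901 CPM, the others 13075 to 13201).

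The effect of MCT differed between Week 3 and Week 2 for 12 rows by edgeR in the 16 libraries of those weeks, a fit chosen after seeing the data, and for none of the long rows in the model of 24 libraries. The log2 change was -0.95 for ND1, -1.05 for ND2, -1.14 for ND3, -0.95 for ND4L, -1.50 for ND4 and -1.14 for ND6. It was -0.96 for ENSRNOG00000030371, -0.92 for ENSRNOG00000031979, -0.79 for ENSRNOG00000030700, -0.86 for ENSRNOG00000029971, -0.57 for ENSRNOG00000031766 and -1.82 for the short row ENSRNOG00000029145.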

How the results depend on the processing

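Week 1 gave 0 called long rows in every alternative run, and the directions of single rows turned. With limma-voom ND1 stood at -0.14, ND2 at -0.13, ND4L at -0.13, MT:5323-6867 at -0.23, MT:11736-13565 at -0.045, MT:14136-15278 at -0.10 and ND3 at 0.047 on the log2 scale. Without PBS replicates 1 and 3 together the values were -0.27 for ND1, -0.20 for ND2, -0.35 for MT:5323-6867, -0.0051 for MT:7919-8599, -0.20 for MT:14136-15278 and 0.21 for ND3. MT:5323-6867 stood at -0.034 with RLE size factors, -0.029 with at least 10 counts in every library and -0.033 with DESeq2. When each library of Week 1 was left out, the log2 fold change lay between -0.049 and 0.64 for ND1, -0.93 and 0.72 for ND3, -0.22 and 0.34 for ND4L, -0.52 and 0.081 for ND4, and -0.28 and 0.27 for MT:5323-6867. It lay between -0.070 and 0.56 for MT:7006-7689, -0.071 and 0.47 for MT:8599-9382, -0.071 and 0.35 for MT:11736-13565, -0.11 and 0.47 for MT:14136-15278, and -0.24 and 0.78 for the short row.

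In Week 2 the count of called long rows was 6 with no fold threshold and 0 to 1 when each library was left out, and MT:1094-2664 lay between -0.043 and 0.15. In Week 3 it was 0 in the fit of all 24 libraries and 0 to 9 when each library was left out. MT:5323-6867 then lay between -0.11 and 0.017 and MT:7758-7961 between -0.20 and 0.23, that row also at 0.025 without scaling and 0.024 with limma-voom. In Weeks 2 and 3 the deviations of MCT and PBS libraries of the same number did not run together (correlation -0.065 to 0.062). In Week 1 the correlation was 0.48 and 0.34 for replicates 1 and 3, and -0.30 and -0.14 for replicates 2 and 4. It was above 0.1 in 2 of 12 pairs, and whether those 2 pairs share a factor was not tested. With a replicate block the long rows called were 1 in Week 2 and 3 in Week 3, nuclear respiratory genes in Week 2 were 1, and ND3 turned to 0.24 in Week 1 and MT:7758-7961 to 0.045 in Week 3.

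Nuclear respiratory genes called in Week 2 were 1 with at least 10 counts in every library and with limma-voom, 0 in the fit of all 24 libraries, and 1 to 2 when each library was left out. In Week 3 they were 13 without scaling, 4 in the fit of all 24 libraries and 5 to 12 when each library was left out. The change of the MCT effect from Week 2 to Week 3 gave 7 long rows without PBS replicates 1 and 3 of Week 1 and 11 in the 16 libraries of Weeks 2 and 3, there 6 to 13 when each library was left out. PBS lungs of Week 3 over Week 2 gave 9 and 10 in these fits. When each library was left out, the difference in share (percentage points) ranged over -0.014 to 1.10 in Week 1, 0.62 to 1.07 in Week 2 and -1.12 to -0.62 in Week 3. It moved by less than 1 SD with all mitochondrial rows or without erythroid counts. The share over protein-coding rows alone was not run, because the rows carry no gene type. In 16 libraries, leaving out was chosen after seeing the data, as was leaving out PBS replicates 1 and 3 for the share.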

Other observations

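The makeup of the mitochondrial counts, as the percent of long-row counts that each row took, leaves the size of the mitochondrial share aside. In Week 3 ND1 took 6.38% ± 0.43 in MCT and 7.77% ± 0.23 in PBS lungs, and ND2 took 6.43% ± 0.44 in MCT and 8.05% ± 0.93 in PBS lungs (SD, n = 4 each), both without overlap. MT:5323-6867 took 32.8% ± 2.6 in MCT and 26.7% ± 2.5 in PBS lungs, with groups that met at 29.4% in MCT and 29.8% in PBS lungs. In Week 2 the rows at MT:68-1025 and MT:1094-2664 took less in every MCT lung, 0.593% ± 0.034 and 0.819% ± 0.018, than in any PBS lung, 0.694% ± 0.063 and 1.01% ± 0.11 (SD, n = 4 each). The groups overlapped for all 15 long rows in Week 1 and for the other 13 rows in each of Weeks 2 and 3. Percentages of one total are tied to each other, and they were given no test.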
